A study of Mus musculus with 9 samples.

Results

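The genes described here are 44 macrophage and neutrophil genes measured in 9 mouse pancreas tumours. They form 3 lists: 9 genes of scavenger-type tissue macrophages, 30 general myeloid genes and 5 neutrophil genes. They were picked by gene symbol from the array's annotation, and where a gene had several probes the one with the highest mean intensity was used. An annotated probe was present for 43 of the 44 (Cd68, a macrophage lysosomal protein, had none), and 42 passed the detection filter, which asked for a detection p-value below 0.05 on 3 or more arrays. The gene left out was Cybb, the catalytic subunit of the phagocyte oxidase, which was above background on no array. In all, 19057 genes had a probe and 11537 were kept.

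Gene expression was measured on Illumina mouse arrays in total RNA from 3 tumours of genotype KPC, 3 of genotype KPC;TwistcKO and 3 of genotype KPC;SnailcKO, called KPC, Twist cKO and Snail cKO here. KPC is the usual name of mice that develop ductal pancreatic cancer, and by their labels all 9 tumours carried this genotype. The cKO mice lacked expression of the transcription factor Twist or Snail in the pancreas by the series' design text, which counts 2 mice per group, whereas the labels give 3 per group, each with its own mouse number. The tumours arose spontaneously, neither the age of the mice nor the promoter behind the deletion is stated in these sources, and the host's myeloid cells are not stated to carry either deletion.

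Macrophages in a pancreatic tumour derive from blood monocytes and from macrophages already resident in the tissue, and they are kept alive largely by signalling through the receptor CSF1R. Tissue-resident macrophages are known for scavenger receptors, which bind modified lipoproteins, haemoglobin complexes and microbes, while Fc receptors, complement C1q, lysozyme and the NADPH oxidase serve engulfment and killing in myeloid cells more widely. Neutrophils carry antimicrobial proteins in granules that are made in the bone marrow, so their granule transcripts are often low in tissue. Because each array read a piece of whole tumour, fewer cells of a type and less RNA per cell cannot be told apart in any value below.

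The targeted genes were read in every group. Twist1 ranged from 7.25 to 9.19 (log2 intensity) in KPC tumours and from 4.60 to 5.23 in Twist cKO tumours, where it was detected in 1 of 3, while Snai1, the gene of Snail, was detected in all 3 Snail cKO tumours, at 6.08 to 7.79 against 6.89 to 7.91 in KPC. The position of either probe relative to the deleted exons is unstated in these sources. The number of probes above background ran from 16707, in Snail cKO replicate 2, to 19606. KPC replicate 1 and Twist cKO replicate 2 stood apart in their epithelial markers. Of 8 such markers 7 were kept (Epcam was detected on no array), and their summed normalised intensity was 1728 and 219.2 in these tumours, against 21190 to 42520 in the other 7. Twist cKO replicate 2 also held the highest sum of the T and NK cell markers (11030 against at most 450.1 elsewhere, 4 of 10 markers kept), of the B and plasma cell markers (13340 against at most 1444, 3 of 7 kept), of the adipocyte markers (12210 against at most 1893, 4 of 7 kept) and of the dendritic cell markers (5487 against at most 1294, 5 of 8 kept). Against KPC, medians of the scavenger-type and general myeloid lists, and most differences of single members, are given with and without KPC replicate 1. No such pair is given for medians of the neutrophil list, of smaller groups of genes or of other lists. The part of these other cell types in the results was not tested.

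No single macrophage or neutrophil gene passed the test between genotypes, and 1 KPC tumour held most of the highest values. In limma's moderated fit over all 9 arrays, 0 of the 42 genes had an adjusted p under 0.05 in any of the 3 comparisons, as did 0 (0%) of the 11537 genes tested in each. At an unadjusted p under 0.05 the fit gave 409 genes for Twist cKO against KPC (3.55%), 312 for Snail cKO against KPC (2.7%) and 438 for Snail cKO against Twist cKO (3.8%). By the same measure 3 of the 42 genes were lower in Twist cKO than in KPC (Cd163, Fcgr1 and Clec7a, where 2.25% of all genes were) and 1 higher (Ngp, where 1.29% were). In Snail cKO against KPC 4 were lower (Cd163, Fcgr3, Clec7a and Csf3r, where 1.69% were) and 0 higher (1.01%), and in Snail cKO against Twist cKO 1 was lower (Apoe, where 1.8% were) and 0 higher (1.99%). The genes under this threshold were not the same when the fit took as a block a split of the arrays into 2 sets by raw intensity: 0 of the 42 then passed for Twist cKO against KPC, where 1.45% of all genes did, with unadjusted p of 0.228 for Cd163, 0.0920 for Fcgr1, 0.226 for Clec7a and 0.367 for Ngp in limma's fit. For Snail cKO against KPC the block left Csf3r and added Gpnmb (1.87% of all genes), and for Snail cKO against Twist cKO it left Apoe and added Ngp (3.71%). With KPC replicate 1 left out, 3 of the 42 passed for Twist cKO against KPC (Fcgr1, Apoe and Il1b, where 3.84% of all genes did). For Snail cKO against KPC 1 of the 42 passed (Il1b, where 3.21% of all genes did). KPC replicate 1 was the highest of the 9 tumours for 26 of the 42 genes (61.9%), a position it held for 14.9% of all genes. It held 7 of the 9 scavenger-type genes, 18 of the 28 general myeloid genes and 1 of the 5 neutrophil genes. The median SD within a group was 1.77 for scavenger-type genes, 1.11 for general myeloid genes and 0.79 for neutrophil genes on the log2 scale, against 0.49 over all genes.

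**Figure D1:**
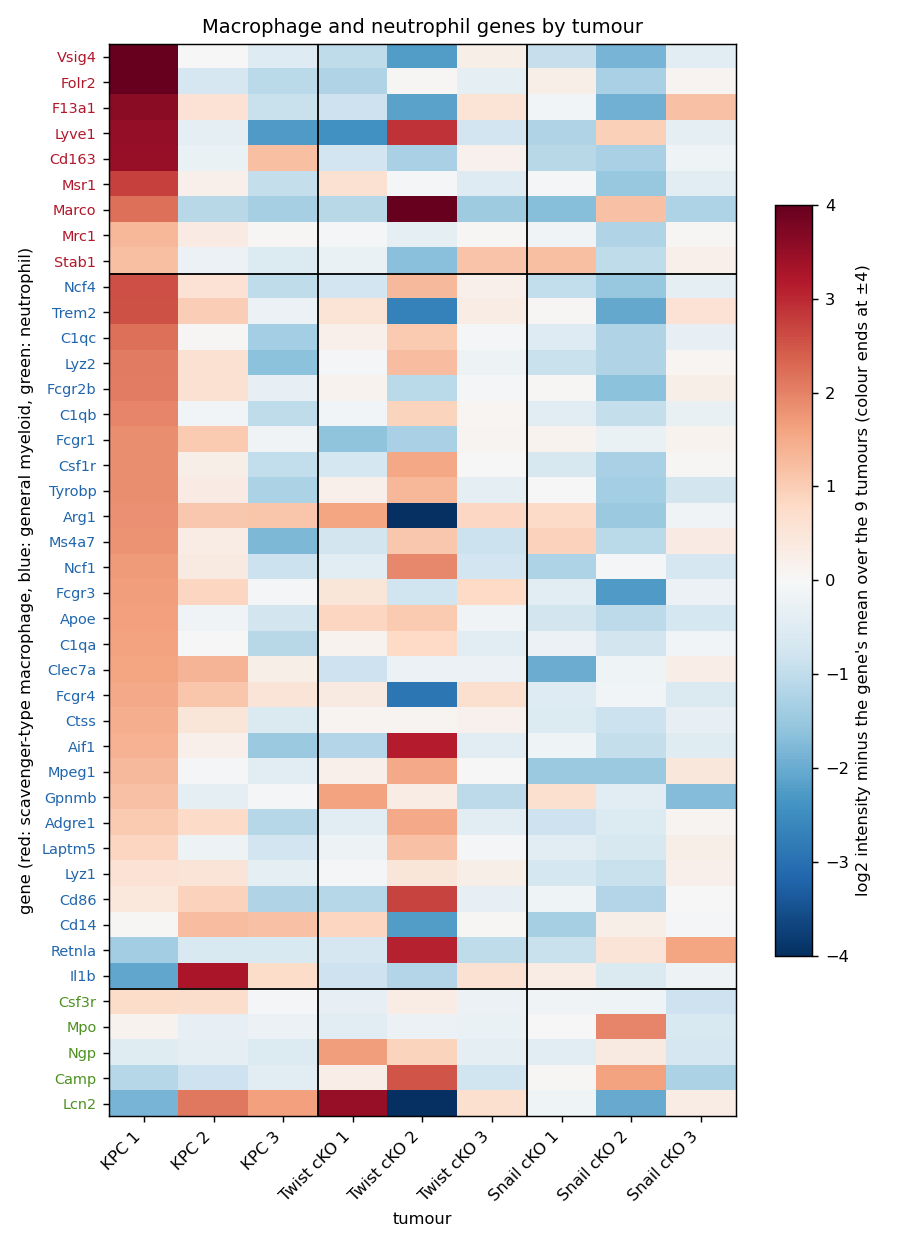
Log2 intensity of the 42 kept genes (rows, grouped as scavenger-type macrophage, general myeloid and neutrophil) in the 9 tumours (columns), each minus the gene's mean over the 9 tumours, with the colour scale ending at ±4. KPC replicate 1 is the highest tumour for 26 of the 42 genes, and Twist cKO replicate 2 for 9.

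In Twist cKO tumours the scavenger-type genes had lower means than in KPC tumours, while the general myeloid genes gave a median near 0 that depended on single tumours. The mean was lower for 8 of 9 scavenger-type genes, with a median log2 difference of -0.70, for 17 of 28 general myeloid genes, with a median of -0.06, and for 3 of 5 neutrophil genes, with a median of -0.18. Over all genes tested, 56.2% had a lower mean and the median was -0.07. All 3 Twist cKO tumours lay below all 3 KPC tumours for 1 of the 42 genes, Clec7a, where 5.07% of all genes did so, and above them for 0, where 3.01% did. Without KPC replicate 1 the mean was lower for 16 of the 42 genes and the scavenger-type median was 0.11, and without both KPC replicate 1 and Twist cKO replicate 2 these were 20 of 42 and -0.04. The general myeloid median was 0.51 without KPC replicate 1 (9 of 28 lower), -0.78 without KPC replicate 3 (27 of 28 lower) and -0.44 without Twist cKO replicate 2 (25 of 28 lower).

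Nearly every macrophage gene had a lower mean in Snail cKO than in KPC. The mean was lower for 9 of 9 scavenger-type genes (median log2 difference -1.14), for 27 of 28 general myeloid genes (median -1.01; the exception was Retnla, a protein of alternatively activated macrophages) and for 2 of 5 neutrophil genes (median 0.20). Over all genes tested, 53.9% had a lower mean and the median was -0.03. All 3 Snail cKO tumours lay below all 3 KPC tumours for 4 of the 42 genes (Fcgr3, Fcgr4, Arg1 and Csf3r), or 9.52%, where 5.81% of all genes did so, and above them for 0, where 2.85% did. The size of the shift rested on KPC replicate 1: without it the median was -0.13 for scavenger-type genes (5 of 9 lower) and -0.40 for general myeloid genes (23 of 28 lower). Leaving out Twist cKO replicate 2 and Snail cKO replicate 2 as well gave 0.11 (4 of 9 lower) and -0.21 (17 of 28 lower).

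**Figure D2:**
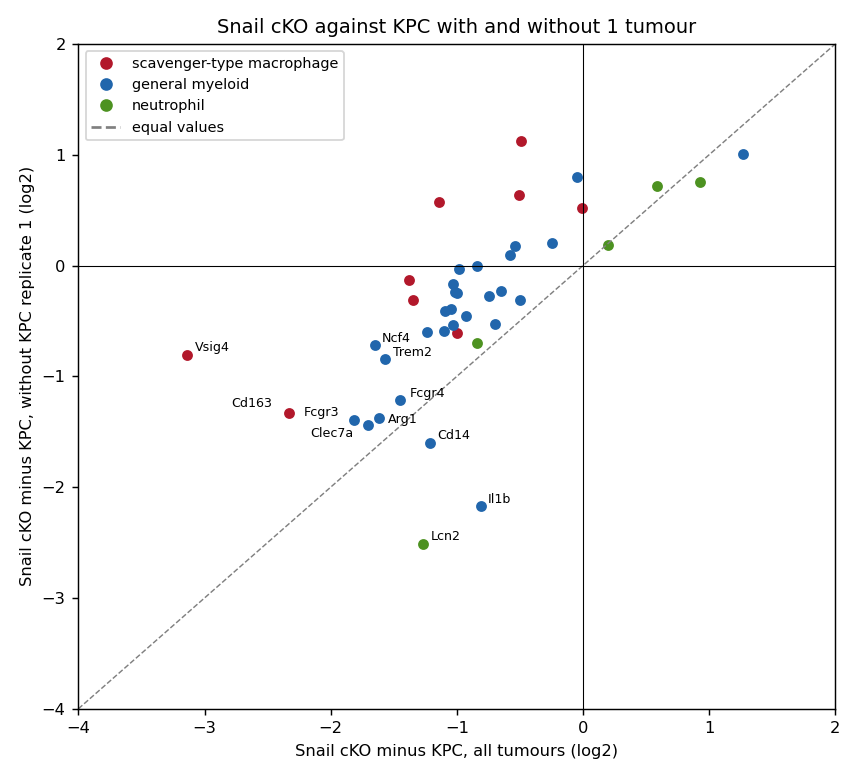
Difference between the Snail cKO and KPC means (log2) of each of the 42 genes, with all tumours on the x axis and without KPC replicate 1 on the y axis; the dashed line marks equal values. The mean is lower in Snail cKO for 38 of the 42 genes with all tumours and for 30 without KPC replicate 1, and Vsig4 lies farthest above the dashed line.

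Between the 2 deletions, the means of general myeloid genes were lower in Snail cKO than in Twist cKO tumours. The mean was lower for 21 of 28 general myeloid genes (median -0.69), 6 of 9 scavenger-type genes (median -0.11) and 4 of 5 neutrophil genes (median -0.54), where 47.8% of all genes had a lower mean and the median was 0.02. All 3 Snail cKO tumours lay below all 3 Twist cKO tumours for 4 of the 42 genes (C1qb, C1qc, Ctss and Apoe), or 9.52%, where 3.95% of all genes did so, and above them for 0, where 4.25% did. Without the 3 tumours KPC replicate 1, Twist cKO replicate 2 and Snail cKO replicate 2 the median of the general myeloid genes was -0.30 (18 of 28 lower). In the array set with 1 tumour of each cKO group it was 0.0039 (14 of 28 lower).

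The arrays also fell into 2 sets by their median raw intensity. One set held all KPC arrays together with the third array of each cKO group (99.1 to 107.2), the other held the remaining 4 cKO arrays (115.4 to 125.4), and the labels name no slide. With this set as a block the mean of the 42 genes was lower in 26 for Twist cKO against KPC (median -0.34) and in 38 for Snail cKO against KPC (median -0.81). With the block 55.2% and 53.6% of all genes had a lower mean. Within the set that holds the KPC arrays, each cKO group has 1 tumour. There the mean was lower in 38 of the 42 genes for Twist cKO (median -0.52) and in 36 for Snail cKO (median -0.60). Of all genes 53.9% and 56.7% had a lower mean in these comparisons. For Twist cKO the general myeloid genes were lower in 28 of 28 (median -0.49). The KPC mean there includes KPC replicate 1, the highest tumour for 18 of these 28 genes. Its part within this set was not tested. Snail cKO against Twist cKO, 1 tumour against 1 there, gave a median of -0.04 with 23 of 42 lower.

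**Figure D3:**
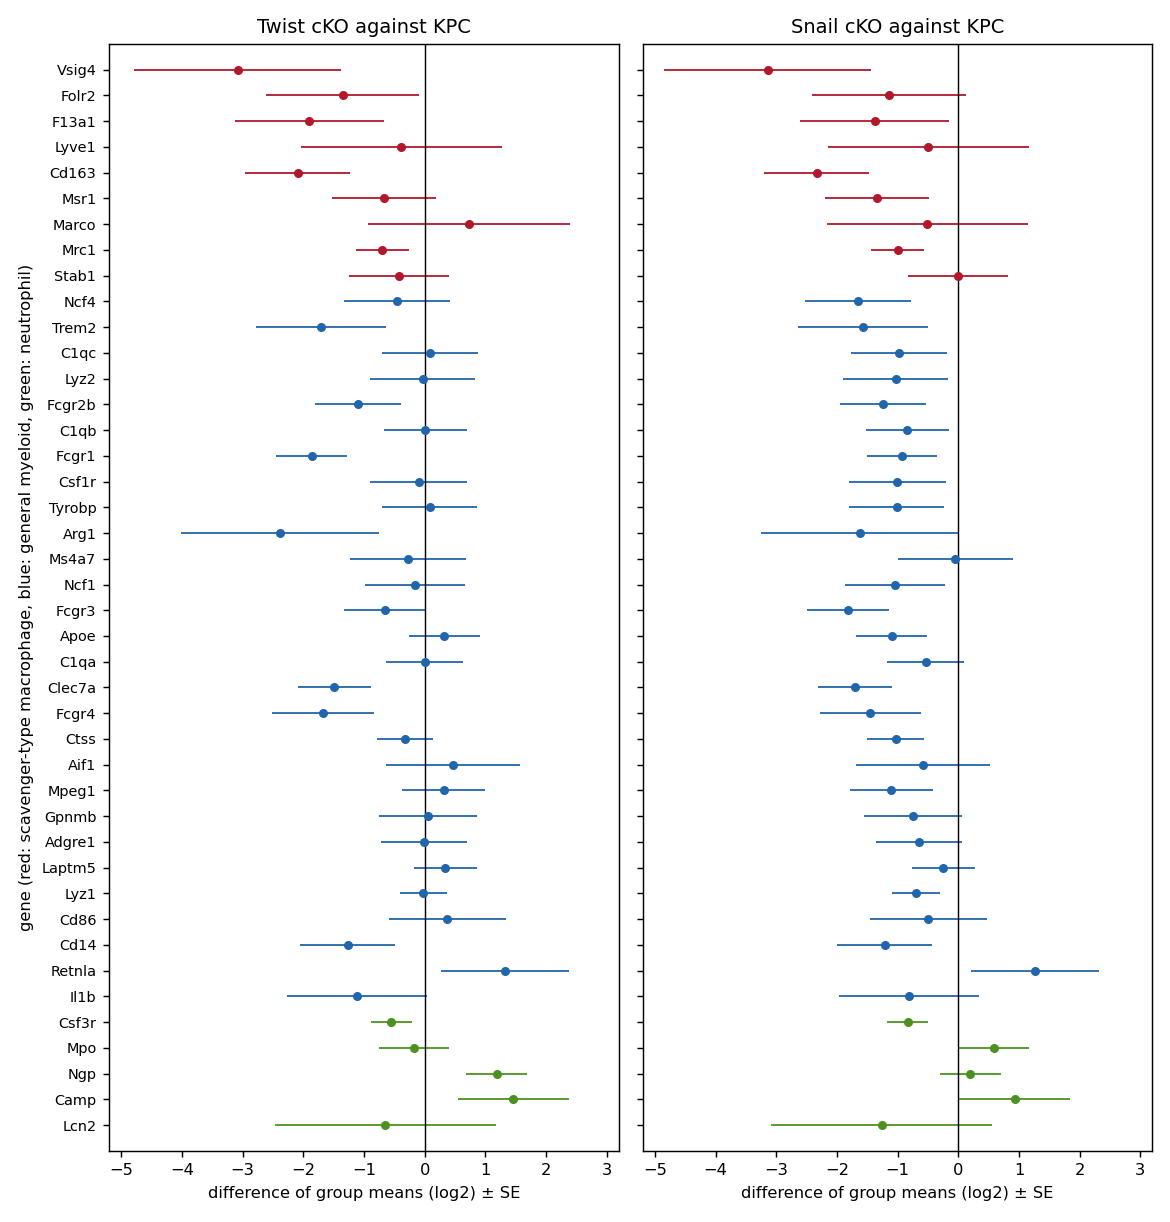
Difference of group means (log2, points) with its standard error (bars) from the fit over 9 tumours for each of the 42 genes, Twist cKO against KPC on the left and Snail cKO against KPC on the right, with genes in the same order in both panels. The scavenger-type genes extend to -3.08 and -3.14 with wide errors, and the points of Snail cKO against KPC lie left of 0 for 38 of the 42 genes.

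Among the scavenger receptors, Vsig4, a complement receptor of resident macrophages, spanned the widest range. It read 13.41, 6.68 and 6.16 in the KPC tumours, 5.65, 4.45 and 6.91 in the Twist cKO tumours and 5.75, 4.82 and 6.26 in the Snail cKO tumours. A single tumour, KPC replicate 1, lay far above the rest, and the other 8 overlapped across genotypes. Its difference from KPC was -3.08 (SE 1.70) in Twist cKO and -3.14 (SE 1.70) in Snail cKO, and -0.75 and -0.81 without KPC replicate 1.

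Cd163, the receptor for haptoglobin bound to haemoglobin, was the scavenger-type gene with the smallest p. It read 11.08, 7.32 and 8.80 in the KPC tumours, 6.84, 6.31 and 7.77 in the Twist cKO tumours and 6.48, 6.30 and 7.43 in the Snail cKO tumours. The highest KPC tumours stood above every cKO tumour, while KPC replicate 2 lay within the cKO range. The difference from KPC was -2.09 (SE 0.86, 4.27-fold lower, unadjusted p = 0.0391, limma adjusted p = 0.979) in Twist cKO and -2.33 (SE 0.86, 5.04-fold lower, unadjusted p = 0.0251, limma adjusted p = 1.00) in Snail cKO. Without KPC replicate 1 these were -1.09 and -1.33.

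Mrc1, the mannose receptor, read 12.78, 11.76 and 11.47 in KPC, 11.36, 11.07 and 11.49 in Twist cKO and 11.30, 10.25 and 11.47 in Snail cKO tumours. Its range was narrow for this list and the lowest KPC tumour met the highest cKO tumours. The differences from KPC were -0.70 and -0.99 (SE 0.44 each), and -0.31 and -0.61 without KPC replicate 1. F13a1, the coagulation factor XIII subunit made by tissue macrophages, read 12.86, 9.83 and 8.38, then 8.43, 7.11 and 9.81, then 9.17, 7.34 and 10.42 in the same order of groups, and Snail cKO replicate 3 exceeded 2 of the 3 KPC tumours. Its difference was -1.90 in Twist cKO and -1.38 in Snail cKO (SE 1.23 each). These were -0.65 and -0.13 without KPC replicate 1, and blocking on the array set moved the latter to 0.02. Msr1, the class A scavenger receptor, read 9.67, 7.14 and 5.98 in KPC, 7.54, 6.83 and 6.39 in Twist cKO and 6.89, 5.42 and 6.46 in Snail cKO tumours. KPC replicate 3 lay below every Twist cKO tumour, and without KPC replicate 1 the difference of Twist cKO from KPC turned from -0.67 to 0.36 and that of Snail cKO was -0.31.

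The other scavenger-type genes split by tumour. Folr2, the folate receptor of resident macrophages, was 11.40 in KPC replicate 1 and 5.85 to 7.38 in the other tumours. Lyve1, a hyaluronan receptor that lymphatic vessels also carry, was high in both KPC replicate 1 (11.66) and Twist cKO replicate 2 (11.04), followed by Snail cKO replicate 2 (9.08), with 5.72 to 7.78 elsewhere. Of the 6 markers of lymphatic endothelium 5 were kept, and their summed intensity was highest in Twist cKO replicate 2 (21340), where Ccl21a, a chemokine of lymphatic vessels, read 14.12. The sum of 8737 in KPC replicate 1 came mostly from Pdpn (13.04), which fibroblasts also express, with Ccl21a at 5.24, Prox1 at 4.97 and Mmrn1 at 4.60, and in Snail cKO replicate 2 the sum was 2211. The part of lymphatic vessels in the Lyve1 values was not tested. Marco, a scavenger receptor for bacteria found on macrophages of spleen and lymph node, was above background on 6 arrays, and it was highest in Twist cKO replicate 2 (10.71), then KPC replicate 1 (8.42) and Snail cKO replicate 2 (7.38), with 4.50 to 5.10 in the others. Stab1, an endocytic receptor shared with some endothelium, ranged from 7.56 to 10.45, with Snail cKO replicate 1 highest. Its other 2 kept probes were highest in KPC replicate 1 and gave differences from KPC of -0.87 and -1.01 in Twist cKO and of -0.53 and -0.88 in Snail cKO, where the brightest probe gave -0.42 and -0.00.

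**Figure D4:**
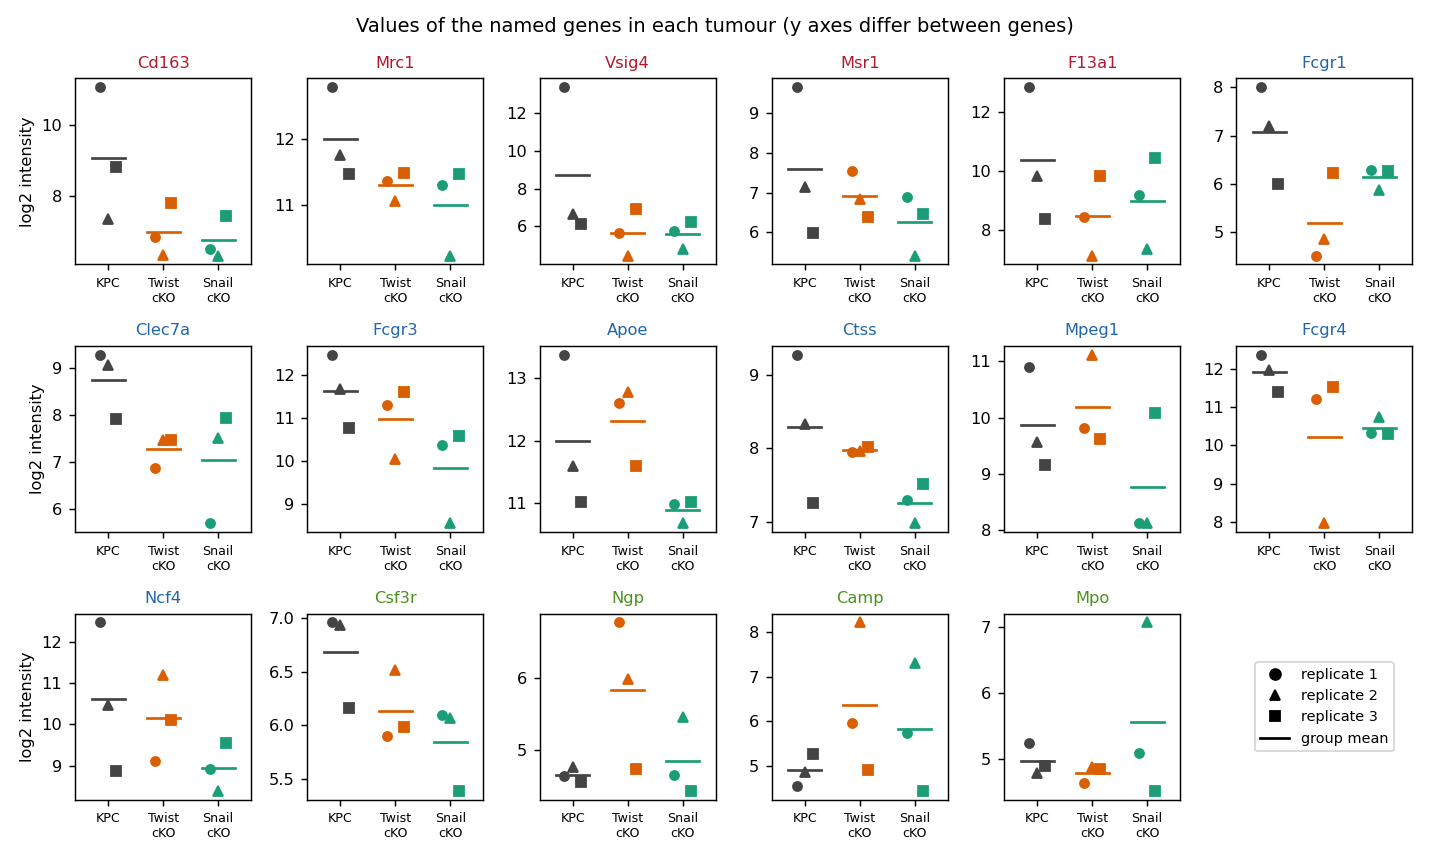
Log2 intensity in each tumour (points, shaped by replicate) and the group mean (line) of the 17 genes described tumour by tumour, with a y axis of its own for each gene. KPC replicate 1 lies alone at the top for Vsig4 and F13a1, whereas Fcgr4, Fcgr3 and Csf3r separate the 3 Snail cKO tumours from the 3 KPC tumours.

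The activating and inhibitory Fc receptors, which bind antibody-coated particles, lay lower on average in Snail cKO than in KPC for 5 of 5 genes of this group (median -1.24) and in Twist cKO for 4 of 5 (median -1.10); Tyrobp is counted with them. Fcgr3 read 12.49, 11.69 and 10.77 in KPC, 11.32, 10.04 and 11.61 in Twist cKO and 10.37, 8.54 and 10.59 in Snail cKO tumours. Every Snail cKO tumour lay below every KPC tumour, by a small gap between the nearest of them. The difference was -1.81 (SE 0.68, 3.51-fold lower, unadjusted p = 0.0268, limma adjusted p = 1.00), and the exact permutation p was 0.1, the smallest that 3 against 3 tumours allow. Without KPC replicate 1 it was -1.39, and within the array set of the KPC tumours -1.06.

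Fcgr4 read 12.37, 11.97 and 11.38 in KPC, 11.21, 7.96 and 11.52 in Twist cKO and 10.33, 10.75 and 10.29 in Snail cKO tumours. The Snail cKO tumours lay close together below the KPC tumours, and Twist cKO replicate 2 alone was far lower. The Snail cKO difference of -1.45 (SE 0.83) was -1.22 without KPC replicate 1. The Twist cKO difference of -1.67 (SE 0.83) was -1.44 without KPC replicate 1 and -0.54 without Twist cKO replicate 2. Fcgr1, the high-affinity receptor, read 8.00, 7.19 and 6.00 in KPC, 4.52, 4.85 and 6.23 in Twist cKO and 6.28, 5.87 and 6.26 in Snail cKO tumours. It was above background on 1 of 3 Twist cKO arrays and on every array of the other groups. The Twist cKO difference was -1.86 (SE 0.58, 3.64-fold lower, unadjusted p = 0.0114, limma adjusted p = 0.979), and -1.39 without KPC replicate 1.

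Fcgr2b, the inhibitory receptor, ranged from 8.57 (Snail cKO replicate 2) to 12.27 (KPC replicate 1), with differences from KPC of -1.10 in Twist cKO and -1.24 in Snail cKO (SE 0.71 each), or -0.46 and -0.60 without KPC replicate 1. A second kept probe gave -1.35 and -1.47, and another, dim and detected on 4 arrays, gave 0.04 and -0.26. Tyrobp, an adaptor through which TREM2 signals, was highest in KPC replicate 1 (11.25) and Twist cKO replicate 2 (10.73). Its range began at 8.02. Its mean difference from KPC was 0.08 in Twist cKO and -1.01 in Snail cKO (SE 0.78 each), 0.85 and -0.24 without KPC replicate 1 and -0.31 and -1.40 blocked by array set.

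The genes of the 3 C1q chains, which together form the recognition unit of complement, had nearly the same order of tumours. C1qc read 13.31, 11.16 and 9.77 in KPC, 11.32, 12.16 and 11.03 in Twist cKO and 10.60, 9.92 and 10.79 in Snail cKO tumours. C1qb ranged from 10.34 to 13.30 and C1qa from 9.07 to 11.77. For all 3 genes KPC replicate 1 was highest, Twist cKO replicate 2 was next and KPC replicate 3 was lowest. The KPC and Twist cKO means were nearly equal (differences of 0.00 to 0.08), and the Snail cKO means lay below KPC by -0.54 to -0.98 and below Twist cKO by -0.54 to -1.07. Leaving out KPC replicate 1, the Snail cKO difference from KPC was 0.18 for C1qa, -0.0015 for C1qb and -0.03 for C1qc, and the Twist cKO difference was 0.72, 0.85 and 1.03. The lower Snail cKO means against KPC thus rested on that tumour. The Snail cKO tumours did not overlap the Twist cKO tumours for C1qb (-0.85, SE 0.68) or C1qc (-1.07, SE 0.79), and the exact permutation p was 0.1 for both.

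The DNA just upstream of C1qb and C1qc is shown with that of Vsig4 and Cd163, since these are macrophage genes that shared the KPC replicate 1 peak while differing in the Twist cKO tumours. Each run is the 250 bases before the start of the gene in RefSeq's GRCm38.p6 annotation, 5′ to 3′ on the gene's strand, and capitals mark GAGGAA or its reverse complement TTCCTC, the core of the motif bound by PU.1, the transcription factor that specifies myeloid cells.
C1qb: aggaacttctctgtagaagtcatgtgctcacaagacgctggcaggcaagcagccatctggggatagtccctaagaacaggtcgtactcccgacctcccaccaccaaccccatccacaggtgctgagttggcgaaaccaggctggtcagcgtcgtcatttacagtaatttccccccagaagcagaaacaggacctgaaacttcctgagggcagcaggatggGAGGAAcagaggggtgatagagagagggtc
C1qc: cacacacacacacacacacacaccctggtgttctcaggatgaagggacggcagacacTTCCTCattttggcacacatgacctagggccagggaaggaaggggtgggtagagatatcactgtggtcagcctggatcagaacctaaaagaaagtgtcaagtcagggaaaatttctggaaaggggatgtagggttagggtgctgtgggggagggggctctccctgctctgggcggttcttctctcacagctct
Vsig4: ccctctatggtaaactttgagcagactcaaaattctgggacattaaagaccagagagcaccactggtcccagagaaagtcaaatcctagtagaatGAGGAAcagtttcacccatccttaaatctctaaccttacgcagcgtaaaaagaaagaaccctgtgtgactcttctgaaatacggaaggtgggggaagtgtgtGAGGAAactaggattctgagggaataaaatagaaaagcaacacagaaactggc
Cd163: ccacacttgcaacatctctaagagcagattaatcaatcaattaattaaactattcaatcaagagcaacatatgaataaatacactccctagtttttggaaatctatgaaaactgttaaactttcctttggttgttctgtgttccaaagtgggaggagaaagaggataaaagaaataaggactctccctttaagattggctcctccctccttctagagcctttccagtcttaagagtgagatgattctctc
The runs lie at chr4:136886201-136886450 (minus strand), chr4:136892915-136893164 (minus strand), chrX:96293439-96293688 (minus strand) and chr6:124304401-124304650 (plus strand). Vsig4 held 2 matches, C1qb 1, C1qc 1 and Cd163 0. A promoter was listed for 34 of the 44 genes, and 21 of these (61.8%) held GAGGAA or TTCCTC in this window, as did 6252 of all 27025 genes listed (23.1%). A match is a run of letters and not a measured binding site. Msr1, Lyve1, Csf1r, Adgre1, Cd14, Tyrobp, C1qa, Cd86, Arg1 and Ncf4 had no entry.

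Among the genes of lipid-handling macrophages, Apoe, an apolipoprotein that hepatocytes and other cells also make, read 13.37, 11.60 and 11.02 in KPC, 12.59, 12.78 and 11.59 in Twist cKO and 10.99, 10.68 and 11.03 in Snail cKO tumours. The 3 Snail cKO tumours lay within a narrow band below all Twist cKO tumours, while 1 of them reached the lowest KPC tumour. The difference of Snail cKO from Twist cKO was -1.42 (SE 0.59, 2.67-fold lower, unadjusted p = 0.0397, limma adjusted p = 0.985), with an exact permutation p of 0.1. That from KPC was -1.10 (SE 0.59), and -0.41 without KPC replicate 1. Trem2, a lipid-sensing receptor, ranged from 5.14 in Twist cKO replicate 2 to 10.37 in KPC replicate 1, with differences from KPC of -1.71 in Twist cKO and -1.57 in Snail cKO (SE 1.07 each), or -0.99 and -0.84 without KPC replicate 1. Gpnmb, a glycoprotein of lipid-laden macrophages, was highest in Twist cKO replicate 1 (11.41) and lowest in Snail cKO replicate 3 (8.06), and its differences from KPC were 0.05 and -0.75 (SE 0.80 each). They were -1.22 and -2.02 when blocked by array set (unadjusted p = 0.107 and 0.0177 in limma's fit), -1.27 and -1.98 within the array set of the KPC tumours, and 0.53 and -0.27 without KPC replicate 1.

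Lysozymes and the lysosomal protease cathepsin S formed a group whose 3 genes all averaged lower in Snail cKO than in either other group. Ctss, which encodes cathepsin S, read 9.28, 8.34 and 7.25 in KPC, 7.95, 7.96 and 8.02 in Twist cKO and 7.29, 6.97 and 7.51 in Snail cKO tumours. The Twist cKO tumours were nearly equal and lay above all Snail cKO tumours, and the KPC tumours spanned both groups. The Snail cKO difference was -1.03 (SE 0.46) from KPC, or -0.54 without KPC replicate 1, and -0.72 (SE 0.46, exact permutation p = 0.1) from Twist cKO. Lyz2, the lysozyme of macrophages and neutrophils, ranged from 10.94 (KPC replicate 3) to 14.66 (KPC replicate 1), with a Snail cKO difference from KPC of -1.03 (SE 0.87), which was -0.16 without KPC replicate 1. Lyz1, its near-identical neighbour that intestinal Paneth cells express, ranged from 13.28 to 14.75, with a difference of -0.70 (SE 0.39), or -0.53 without that tumour, and RNA of one gene bound to the probe of the other cannot be told apart here.

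Of the 10 genes for macrophage identity and surface proteins 9 were kept. Their means were lower in Snail cKO than in KPC for 9 of 9 (median -0.65) and in Twist cKO for 5 of 9 (median -0.01). Without KPC replicate 1, Aif1, Laptm5 and Ms4a7 turned to higher means in Snail cKO than in KPC. Adgre1, Csf1r and Ms4a7 did so in Twist cKO. Clec7a, the receptor dectin-1 for fungal glucans, read 9.29, 9.07 and 7.92 in KPC, 6.88, 7.47 and 7.47 in Twist cKO and 5.70, 7.52 and 7.95 in Snail cKO tumours. All Twist cKO tumours lay below all KPC tumours, and Snail cKO replicate 3 just reached the lowest of these. The Twist cKO difference was -1.49 (SE 0.61, 2.80-fold lower, unadjusted p = 0.0376, limma adjusted p = 0.979), with an exact permutation p of 0.1, and the Snail cKO difference was -1.70 (SE 0.61, 3.25-fold lower, unadjusted p = 0.0213, limma adjusted p = 1.00). Without KPC replicate 1 they were -1.22 and -1.44, and a second probe gave -1.17 and -1.90 over all tumours.

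Mpeg1, the pore-forming perforin-2 of macrophages, read 10.90, 9.56 and 9.16 in KPC, 9.81, 11.12 and 9.62 in Twist cKO and 8.12, 8.11 and 10.08 in Snail cKO tumours. Snail cKO replicates 1 and 2 were the lowest of all, and replicate 3 exceeded all but 2 of the other tumours. The Snail cKO difference was -1.10 (SE 0.69) from KPC, was -0.59 without KPC replicate 1 and turned to 0.20 within the array set of the KPC tumours. Csf1r, the receptor for the macrophage growth factors, was 10.75 in KPC replicate 1, 10.42 in Twist cKO replicate 2 and 7.59 to 9.12 elsewhere. Adgre1, the antigen F4/80, and Laptm5, a lysosomal protein of blood cells, were highest in Twist cKO replicate 2 (10.09 and 14.12), with lowest values of 7.42 and 12.19.

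Aif1, the actin-binding protein IBA1, and Cd86, a co-stimulatory ligand shared with dendritic and B cells, peaked in Twist cKO replicate 2. Aif1 was 11.68 there and 7.05 to 9.91 in the other tumours, and Cd86 was 3.04 above the mean of the other 8, which ranged from 7.11 to 9.21. That tumour also held the highest sums of dendritic and B cell markers given above, whose part in these values was not tested. Ms4a7, a membrane protein of macrophages, ranged from 7.08 (KPC replicate 3) to 10.68 (KPC replicate 1) with differences from KPC of -0.27 in Twist cKO and -0.05 in Snail cKO (SE 0.95 each), which turned to 0.58 and 0.80 without KPC replicate 1. Cd14, the co-receptor for endotoxin, differed from the rest of this group: KPC replicate 2 was highest (11.83), KPC replicate 1 was at 10.64, and Twist cKO replicate 2 was lowest (8.37).

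Of the oxidase subunits, Ncf4 read 12.47, 10.47 and 8.88 in KPC, 9.13, 11.20 and 10.11 in Twist cKO and 8.93, 8.38 and 9.55 in Snail cKO tumours. KPC replicate 3 lay among the Snail cKO tumours. The Snail cKO difference from KPC was -1.65 (SE 0.88), and -0.72 without KPC replicate 1. Ncf1, the organising subunit, was highest in Twist cKO replicate 2 (8.47) and KPC replicate 1 (8.25) and ranged from 5.33 to 6.90 in the others.

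The 3 genes of activation state differed among themselves in which tumour was highest. Arg1, the arginase of alternatively activated and suppressive myeloid cells, read 12.26, 11.53 and 11.53 in KPC, 12.02, 4.89 and 11.25 in Twist cKO and 11.20, 8.95 and 10.31 in Snail cKO tumours. It was not above background in Twist cKO replicate 2, and all Snail cKO tumours lay below all KPC tumours, with a difference of -1.62 (SE 1.63), or -1.37 without KPC replicate 1. Retnla, which was above background on 6 arrays, was highest in Twist cKO replicate 2 (8.89), then Snail cKO replicate 3 (7.39) and Snail cKO replicate 2 (6.34), and lowest in KPC replicate 1 (4.43). Il1b, the inflammatory cytokine, read 5.93 in KPC replicate 1, the lowest of all 9 tumours, and 11.27 in KPC replicate 2, the highest. The KPC tumour with the highest scavenger receptors was thus the one with the lowest Il1b.

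Among the 5 neutrophil genes KPC replicate 1 was the highest tumour for 1, Csf3r. This gene, which encodes the receptor for the neutrophil growth factor G-CSF, read 6.96, 6.93 and 6.17 in KPC, 5.90, 6.52 and 5.99 in Twist cKO and 6.10, 6.07 and 5.39 in Snail cKO tumours. All Snail cKO tumours lay below all KPC tumours, with a difference of -0.84 (SE 0.34, 1.79-fold lower, unadjusted p = 0.0377, limma adjusted p = 1.00) and an exact permutation p of 0.1. It was -0.70 without KPC replicate 1. A second, dimmer probe gave 0.08 for the same difference and was highest in Snail cKO replicate 2, so the probes disagreed.

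The granule genes Ngp, Camp and Mpo were dim, while Lcn2 was above background on all 9 arrays. Ngp, neutrophilic granule protein, read 4.63, 4.76 and 4.55 in KPC, 6.77, 5.99 and 4.74 in Twist cKO and 4.65, 5.46 and 4.42 in Snail cKO tumours. It was above background on 0 of 3 KPC arrays, 2 of 3 Twist cKO arrays and 1 of 3 Snail cKO arrays. Against the lowest signal above background, its mean was at least 1.80-fold higher in Twist cKO than in KPC tumours (unadjusted p = 0.0440, limma adjusted p = 0.979). This rested on Twist cKO replicates 1 and 2, while replicate 3 lay within the KPC range. Within the array set of the KPC tumours, with 1 Twist cKO tumour, the log2 difference of Ngp was 0.09. Camp, the antimicrobial peptide cathelicidin, read 4.55, 4.87 and 5.28, then 5.97, 8.22 and 4.90, then 5.73, 7.32 and 4.43, and was above background on 5 arrays. The highest values came from replicate 2 of both cKO groups. The difference of Twist cKO from KPC was 1.46 (SE 0.91), or 0.53 without Twist cKO replicate 2. Within the array set of the KPC tumours, with 1 Twist cKO tumour, it was 0.0014. All arrays of that set read 4.43 to 5.28 for Camp, and all arrays of the other set read 5.73 to 8.22.

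Mpo, myeloperoxidase, read 5.24, 4.79 and 4.89 in KPC, 4.65, 4.88 and 4.86 in Twist cKO and 5.10, 7.07 and 4.52 in Snail cKO tumours. It was above background on 1 KPC array, 0 Twist cKO arrays and 2 Snail cKO arrays, and only Snail cKO replicate 2 stood out. Its mean was at least 1.5-fold higher in Snail cKO than in Twist cKO tumours by the same bound (limma adjusted p = 0.985), and without Snail cKO replicate 2 the difference was 0.01. Lcn2, lipocalin-2, which injured epithelium makes as well as neutrophils, ranged from 6.44 in Twist cKO replicate 2 to 14.06 in Twist cKO replicate 1. The tumours with the lowest epithelial marker sums had 6.44 and 8.74, Snail cKO replicate 2 had 8.58 with a high epithelial sum (41180), and the other tumours had 10.43 to 14.06. The part of epithelial cells in the Lcn2 values was not tested.

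KPC replicate 1 and Twist cKO replicate 2 were both low in epithelial markers but differed in their myeloid genes. Against the mean of the other 8 tumours, KPC replicate 1 was higher for 9 of 9 scavenger-type genes (median log2 difference 3.92), 26 of 28 general myeloid genes (median 1.82) and 2 of 5 neutrophil genes, where it was higher for 50.4% of all genes. Twist cKO replicate 2 was higher for 3 of 9 scavenger-type genes (median -0.42) and 19 of 28 general myeloid genes (median 1.08), where it was higher for 46.3% of all genes. Snail cKO replicate 2 lay at the other end: it was lower for 7 of 9 scavenger-type genes (median -1.45) and 26 of 28 general myeloid genes (median -1.08), but higher for 3 of 5 neutrophil genes (median 0.39), where it was higher for 47.3% of all genes. It had the lowest value of all tumours for 13 of the 42 genes (31%), where it did for 14.2% of all genes. This array also detected the fewest probes, and that tumour had the lowest sum of the 9 kept fibroblast markers (6262 against 12510 to 22430), whose part in these values was not tested.

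**Figure D5:**
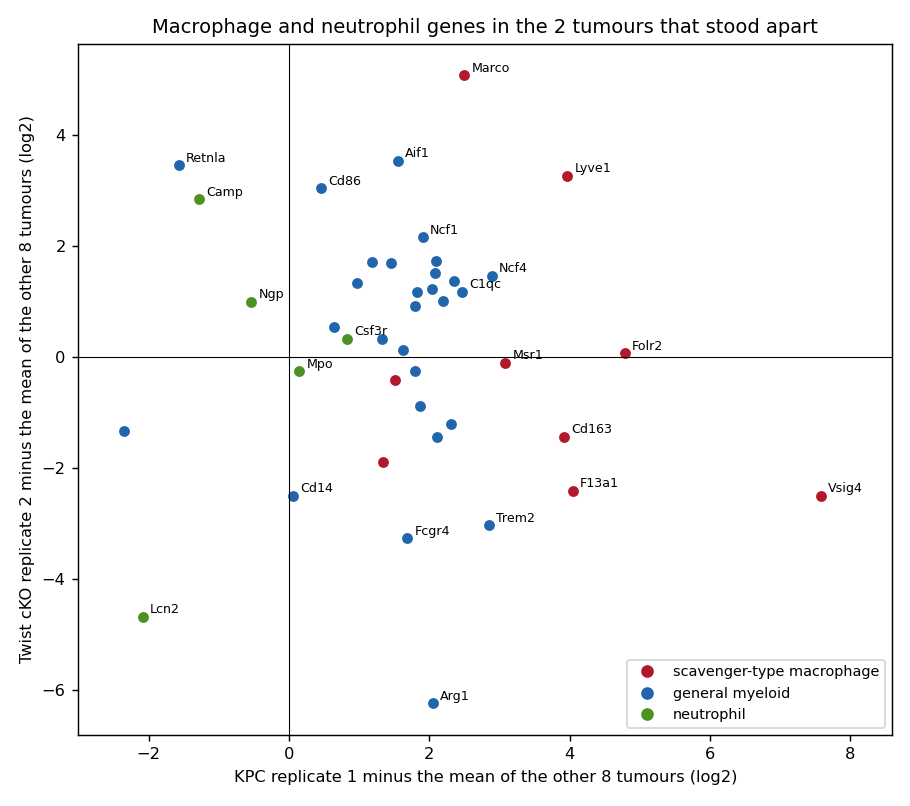
Each of the 42 genes by its log2 difference from the mean of the other 8 tumours in KPC replicate 1 (x axis) and in Twist cKO replicate 2 (y axis). The scavenger-type genes lie on the right, 9 of 9 above 0 in KPC replicate 1 but 3 of 9 above 0 in Twist cKO replicate 2, where Marco and Lyve1 are high and Vsig4, F13a1 and Cd163 are low.

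Other myeloid genes were read from 3 further lists, and 0 of their genes passed the adjusted threshold in limma's fit with all tumours. Of 48 other macrophage and monocyte genes 33 were kept, and their means were lower in 28 for Snail cKO against KPC (median -0.37) and in 17 for Twist cKO against KPC (median -0.02). Chil3, a secreted chitinase-like protein of alternatively activated macrophages, read 12.36, 11.47 and 11.60 in KPC, 12.47, 6.25 and 11.72 in Twist cKO and 8.30, 7.39 and 9.99 in Snail cKO tumours. All Snail cKO tumours lay below all KPC tumours (-3.25, SE 1.46), as for 2 of the 33 genes (6.06%), where 5.81% of all genes did so. Fcer1g, the signalling chain of the activating Fc receptors, read 12.20, 11.17 and 9.69 in KPC, 10.44, 4.46 and 4.52 in Twist cKO and 10.11, 9.83 and 10.29 in Snail cKO tumours. Both Twist cKO replicates 2 and 3 were not above background on its probe, although their Fcgr3 and Tyrobp values were within the range of the other tumours. Whether this probe reads the gene in those tumours was not tested, so no fold is given. Fabp5, a fatty acid binding protein, was higher in all 3 Twist cKO tumours (6.13 to 6.79) than in all 3 KPC tumours (4.53 to 5.77) and all 3 Snail cKO tumours (4.92 to 5.96), with a difference of 1.17 (SE 0.42, unadjusted p = 0.0229, limma adjusted p = 0.979) for Twist cKO against KPC and of -0.92 (SE 0.42) for Snail cKO against Twist cKO. Of the 33 genes 1 (3.03%) lay above KPC in all Twist cKO tumours, where 3.01% of all genes did. All Snail cKO tumours lay below all Twist cKO tumours for 3 of the 33 (9.09%), where 3.95% of all genes did so. The cholesterol exporter Abcg1 was 7.82 and 8.40 in Twist cKO replicates 1 and 2 and 5.06 to 6.46 in the other tumours, and Lpl, lipoprotein lipase, which adipocytes also make, was 13.55 in Twist cKO replicate 2, the tumour with the highest adipocyte marker sum, and 9.55 to 11.07 elsewhere. Spi1, the gene of PU.1, was above background on 5 arrays and highest in Twist cKO replicate 2 (7.16) and KPC replicate 1 (6.69). Itgam, an integrin of myeloid cells, was 7.36 in KPC replicate 1 and 4.50 to 5.56 elsewhere, and Ptprc, the pan-leukocyte antigen, was not kept.

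Of the 13 myeloid growth factors and receptors 11 were kept, with lower means in 9 for Snail cKO against KPC (median -0.63) and in 8 for Twist cKO against KPC (median -0.11). Csf1, the growth factor of macrophages, was 10.24 in KPC replicate 1, the tumour with the highest scavenger receptors, and 5.75 to 7.91 in the others. The receptors Csf2ra (-1.34, SE 0.59) and Il6ra (-1.07, SE 0.46) averaged lower in Snail cKO than in KPC, with unadjusted p of 0.0495 and 0.0461 and limma adjusted p of 1.00 for both. Of 35 other neutrophil genes 25 were kept, with lower means in 17 for Snail cKO (median -0.34) and in 12 for Twist cKO (median 0.02). The formyl peptide receptor Fpr2 and the activating receptor Trem1 lay lower in all 3 Snail cKO tumours than in all 3 KPC tumours (-2.19, SE 0.67, and -1.59, SE 0.50), with unadjusted p of 0.0103 and 0.0124 and limma adjusted p of 1.00 for both. Of the 25 genes 3 (12%) were separated in this way, where 5.81% of all genes were. Hp, the gene of haptoglobin, which liver and epithelium make as well as neutrophils, read 9.14, 10.41 and 8.71 in KPC, 10.93, 11.42 and 10.08 in Twist cKO and 8.17, 9.46 and 8.56 in Snail cKO tumours. All Snail cKO tumours lay below all Twist cKO tumours (-2.08, SE 0.55, unadjusted p = 0.00474, limma adjusted p = 0.985), as for 1 of the 25 genes (4%), where 3.95% of all genes did so. S100a8 and S100a9, which encode the calprotectin subunits, were highest in Twist cKO replicate 1 (12.77 and 11.76), the tumour in which Ngp and Lcn2 were also highest.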

How the data were processed

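Per the labels' protocols, Trizol-extracted RNA was made into biotinylated cRNA for 1-colour Illumina arrays. GenomeStudio 5.0 appears in the submitters' processing notes, its role unstated. The deposited main table holds, per the file headers, a mean bead intensity (linear and, from its values, not normalized between arrays) with its detection p-value for 45281 probes. The authors also deposited a table of processed intensity values. Each column of that table was a straight-line function of the bead intensity (slopes 0.795 to 1.16), whose scaling method is unstated. Column medians ran from 9.3 to 23.3.

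Symbols came from the platform annotation (34885 probes with 1 symbol, 18 with several, 10378 with none). Intensities were processed by limma's neqc (limma 3.58.1, R 4.3.3; background from detection p-values, offset 16, quantile normalization, log2). Probes detected (p under 0.05) on at least 3 of 9 arrays were kept, and the probe with the highest mean bead intensity stood for its gene. A group-means model over 9 arrays gave 3 two-sided comparisons, Benjamini-Hochberg adjusted over 11537 genes at 0.05. The labels give each tumour its own mouse, so p-values reflect spread between mice, and precision is limited by the number of arrays. Single genes also had an exact two-sided permutation test. The script was tested on simulated data.

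The members and lists were chosen with earlier results of these data known. Tumour by tumour, the text describes the 5 scavenger-type, 8 general myeloid and 3 neutrophil genes of smallest unadjusted p, and members undetected throughout a group. Of the further lists the rule took the 4 genes of smallest p per comparison with Itgam, Ptprc, Spi1, Fcer1g, S100a8 and S100a9. Not all of these are described: the examples given, and the mention of Csf1, were chosen after their values were seen. The C1qc values and the promoters shown were likewise chosen after values were seen. Alternatives were no background correction, cyclic loess, the authors' processed table, no or a stricter detection filter, the mean of a gene's probes, an intensity trend, array set as a block or alone, leaving out tumours, and 2 chosen after seeing the data: the brightest probe by normalized value, and leaving out Snail cKO replicate 2 with the 2 tumours that stood apart. For a gene undetected throughout a group, the fold is a lower limit, in which the mean of the brighter group is set against, on each dim array, the probe's signal or the lowest detected signal, whichever is higher.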

Additional observations from a re-analysis of the deposited data

How the results depend on the processing

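In the limma fit no gene was called with all 9 tumours, nor under any of the 12 alternatives other than leaving out single tumours. Leaving out 1 tumour gave 0 to 3 calls for Twist cKO against KPC, 0 to 1 for Snail cKO against KPC and 0 to 1 for Snail cKO against Twist cKO, 0 of them members. The calls without KPC replicate 3 were Casp4 in both comparisons with KPC, those without Twist cKO replicate 1 were Fcer1g (whose probe was at background in both remaining Twist cKO tumours), Gdpd3 and Thumpd1 against KPC and Thumpd1 in Snail cKO against Twist cKO. No paired analysis was possible because the labels give no replicate number shared between groups. Under no background correction, cyclic loess, the authors' processed table, no filter, the mean of a gene's probes, an intensity trend and the brightest probe by normalized value, the list medians kept their sign. The 17 genes plotted tumour by tumour did too, except Vsig4 in Snail cKO against Twist cKO (-0.06 in the main fit), which turned with cyclic loess. The medians moved by at most 0.18 (scavenger-type), 0.14 (general myeloid) and 0.22 (neutrophil), less than the SD of the list's median between tumours of a group (1.43, 0.78 and 0.36). For Twist cKO against KPC the general myeloid median, -0.06, was -0.012 with cyclic loess and -0.20 with the mean of a gene's probes.

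The median of the 5 neutrophil genes moved with several settings. For Twist cKO against KPC it was -0.60 with genes detected on all 9 arrays, 0.18 without KPC replicate 1 and Twist cKO replicate 2 together, also with Snail cKO replicate 2 left out, and -0.21 to 0.53 with 1 tumour left out. For Snail cKO against KPC it was -1.05 with genes detected on all 9 arrays, -0.50 with the array set as a block, -0.46 within array set 1 and -0.17 to 0.41 with 1 tumour left out. For Snail cKO against Twist cKO it was -0.10 without KPC replicate 1 and Twist cKO replicate 2 and -0.54 to -0.055 with 1 tumour left out. With 1 tumour left out the scavenger-type medians ran from -1.67 to 0.11 for Twist cKO against KPC, -2.10 to -0.13 for Snail cKO against KPC and -0.38 to 0.16 for Snail cKO against Twist cKO. The general myeloid medians ran from -0.78 to 0.51, -1.52 to -0.40 and -0.86 to -0.51 in the same order. Within array set 1 they were -0.49 for Twist cKO against KPC and 0.0039 for Snail cKO against Twist cKO, and the Snail cKO against KPC median was -0.21 without the 3 tumours.

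Of the 42 members, 10 turned in direction for Twist cKO against KPC and 4 for Snail cKO against KPC when array set was a block, 14 and 8 within array set 1, and 12 and 8 without KPC replicate 1. For Snail cKO against Twist cKO 0 turned with the block and 20 within array set 1. Without KPC replicate 1 and Twist cKO replicate 2 together 14 turned in that comparison. Among those described by their range, Gpnmb was -1.22 and Tyrobp -0.31 for Twist cKO and Stab1 0.74 for Snail cKO with the block, and Ms4a7 was 0.23 for Snail cKO within array set 1. The turns of the 17 plotted genes are given below for the comparisons with KPC, and for Apoe, Mpeg1 and Mpo also for Snail cKO against Twist cKO. In that comparison Clec7a, Fcgr4 and Msr1 also turned within array set 1. Camp, F13a1 and Fcgr4 turned there without KPC replicate 1 and Twist cKO replicate 2, and Fcgr4 with Snail cKO replicate 2 left out as well. Leaving out single tumours turned Camp, Cd163, Clec7a, F13a1, Fcgr4, Mrc1 and Vsig4 there. With the array set as a block, Fcgr3 was 0.029 for Twist cKO against KPC, and F13a1 was 0.023, Ngp -0.56 and Camp -0.50 for Snail cKO against KPC. Within array set 1, Apoe was -0.41 and Mpeg1 -0.25 for Twist cKO against KPC, F13a1 0.065, Mpeg1 0.20, Ngp -0.22, Camp -0.47 and Mpo -0.46 for Snail cKO against KPC, and Mpeg1 0.45 and Mpo -0.34 for Snail cKO against Twist cKO. There a group with 1 tumour is assumed to vary like the others. Without KPC replicate 1 and Twist cKO replicate 2, Msr1 was 0.41, F13a1 0.018, Fcgr3 0.24 and Ctss 0.19 for Twist cKO against KPC, the same with Snail cKO replicate 2 left out as well, when Msr1 was 0.11, F13a1 0.69, Ngp -0.12 and Mpo -0.035 for Snail cKO against KPC. With 1 tumour left out, the Twist cKO against KPC values ran from -0.17 to 1.01 for Apoe, -0.84 to 0.18 for Ctss, -0.16 to 0.83 for Mpeg1, -1.48 to 0.36 for Msr1 and -1.32 to 0.47 for Ncf4, and the Snail cKO against KPC values from -0.17 to 1.11 for Mpo and -0.11 to 0.41 for Ngp. The cause of these changes was not tested. Signal over background limits Ngp and Mpo (detected on 3 arrays each), Camp (5) and Marco and Retnla (6 each), and with 3 tumours a group the exact test cannot go below 0.1.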
